A study of Mus musculus with 27 samples.

Results

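The alpha and mu classes of cytosolic glutathione transferases were followed in mouse liver through 9 genes: Gsta1, Gsta2, Gsta3 and Gsta4 of the alpha class and Gstm1, Gstm2, Gstm3, Gstm4 and Gstm6 of the mu class. The members were chosen by gene name, as the 9 named genes among 22869 genes in the deposited RNA table, with the transcript that the authors marked as best for each gene. All 9 passed the filter on low counts that left 12009 genes for testing.

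Glutathione transferases join the tripeptide glutathione to reactive, often oxidized or foreign compounds, and the conjugates are then exported from the cell. The cytosolic enzymes work as dimers of subunits from 1 class. They are abundant in hepatocytes, and several are induced by oxidative or xenobiotic stress through the antioxidant response factor NRF2 and the nuclear receptors CAR and PXR. Gsta1 and Gsta2 encode closely related subunits that are low in untreated mouse liver and inducible. Gsta3 encodes the constitutive alpha subunit of mouse liver, known for conjugating activated aflatoxin. Gsta4 encodes the subunit specialised for 4-hydroxynonenal, a product of lipid peroxidation. Gstm1 encodes the main mu subunit of mouse liver, and Gstm3 an inducible one.

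RNA was sequenced from 17 liver samples of C57Bl/6 mice fed ad libitum, 10 days after injection of AAV8, a viral vector that reaches hepatocytes. HDAC3 LKO livers (n = 4) came from HDAC3 floxed mice given AAV8:Cre, SCAP LKO livers (n = 4) from SCAP floxed mice given AAV8:Cre, and Double LKO livers (n = 3) from mice floxed for both genes and given AAV8:Cre. The GFP control livers (n = 6) came from the same floxed lines given AAV8:GFP, with 2 livers from each line. HDAC3 removes acetyl groups from histones within corepressors built on NCoR or SMRT, and SCAP escorts the SREBP transcription factors to the Golgi for activation. Every knockout liver received Cre and every control GFP, so that an effect of Cre itself and of gene loss cannot be told apart in a comparison with GFP controls. Labels number the samples as replicates without saying that each is 1 animal, so the p-values measure the spread between these samples, which may be technical. The columns of the Double LKO and of the SCAP-floxed and Double-floxed GFP livers could be tied to their group but not to single samples, and they are called libraries by the number in their column name. The library kit, per the labels' protocols, was TruSeq RNA v2, which does not mark strand, so reads of a gene and of one overlapping it in antisense cannot be told apart.

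Libraries held 5158695 to 8672408 counts in HDAC3 LKO, 3546597 to 7788828 in SCAP LKO, 3736618 to 20622671 in Double LKO and 4747602 to 19316642 in GFP control livers. Hdac3 had 7.46 to 10.6 CPM in HDAC3 LKO and 9.2 to 12.4 CPM in Double LKO livers, against 34.3 to 40.7 CPM in GFP control livers. Scap had 43.9 to 59 CPM in SCAP LKO and 45.4 to 50.8 CPM in Double LKO livers, against 91.2 to 139 CPM in GFP control livers. CPM are counts scaled to the size of each library with TMM factors. Library 2 of the Double LKO, the shallowest of its group, stood apart from libraries 3 and 4, at 45.8 on the second principal component of all genes, where these had 1.55 and 8.7. Its summed hepatocyte markers came to 79323 CPM, against 115954 to 150120 CPM over the HDAC3 LKO, SCAP LKO and GFP control livers. Several results for the Double LKO are therefore also given without it, and all others include it. The tissue carried its label, since all 8 hepatocyte markers were found and none was at 0. In bulk liver RNA, fewer cells of a type and less RNA per cell cannot be told apart.

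The genes lie in 3 places of the genome, by the RefSeq annotation of GRCm38.p6. Gsta3 stands alone on chromosome 1. Gstm6, Gstm3, Gstm2, Gstm1 and Gstm4 follow each other on chromosome 3, with 2 pseudogenes among them. Gsta4, Gsta1 and Gsta2 lie in a run of 10 genes on chromosome 9, together with Gm3776 and Gm10639, which are annotated as protein coding. Promoter windows of 300 bases, from 250 before to 50 after the annotated start, were found for 8 of the 9 members in the RefSeq table (GRCm38.p6). Gsta1 and Gsta2, the inducible pair, had windows identical at 75.3% of aligned positions, and the other pairs among the 28 pairs of members reached at most 54.9%. The windows of Gsta1 and Gm3776 were identical at 90.7% of positions, with 3 substituted bases. These windows are shown because Gsta1, Gsta2 and Gm3776 were all high in the Double LKO. They lie mostly before the start, and the identity of the transcripts, on which the splitting of reads between genes depends, was not computed. Capitals mark runs of 12 or more bases shared by Gsta1 (chr9:78230419-78230718, plus strand) and Gsta2 (chr9:78347096-78347395, minus strand), 117 bases in each.
Gsta1: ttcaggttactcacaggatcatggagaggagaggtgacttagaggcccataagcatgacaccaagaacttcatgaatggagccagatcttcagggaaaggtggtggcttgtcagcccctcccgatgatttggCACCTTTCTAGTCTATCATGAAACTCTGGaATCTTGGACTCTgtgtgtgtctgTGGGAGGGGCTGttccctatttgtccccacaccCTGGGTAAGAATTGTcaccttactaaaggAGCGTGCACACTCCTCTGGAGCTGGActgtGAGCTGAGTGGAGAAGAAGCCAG
Gsta2: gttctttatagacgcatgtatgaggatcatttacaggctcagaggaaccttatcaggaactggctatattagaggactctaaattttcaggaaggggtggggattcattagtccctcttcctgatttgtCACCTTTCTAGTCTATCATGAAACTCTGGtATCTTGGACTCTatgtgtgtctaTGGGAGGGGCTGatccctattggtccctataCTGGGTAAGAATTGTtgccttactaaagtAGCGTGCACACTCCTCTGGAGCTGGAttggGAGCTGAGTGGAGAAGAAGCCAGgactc
In the window of Gm3776 (chr9:78256879-78257178, plus strand), capitals mark the 16 bases that have no identical partner in Gsta1, of which all but the substituted ones stand at its start, where the windows are offset.
Gm3776: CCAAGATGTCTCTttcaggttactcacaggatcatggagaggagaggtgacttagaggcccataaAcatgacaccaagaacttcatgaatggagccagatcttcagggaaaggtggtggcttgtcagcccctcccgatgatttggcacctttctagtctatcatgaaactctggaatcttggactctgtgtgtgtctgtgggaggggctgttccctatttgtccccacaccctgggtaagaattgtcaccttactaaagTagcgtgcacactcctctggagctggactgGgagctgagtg

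The windows were searched on both strands for 2 motifs, which share no match in the windows of the members. TGACNNNGC is the core of the antioxidant response element, which NRF2 binds, and TCACNCCAC is a form of the sterol regulatory element, which SREBP factors bind. The first was found in 4071 of 32851 windows in the table (12.4%) and, among the members, in Gsta3 alone (chr1:21240335-21240634, plus strand), where capitals mark it.
Gsta3: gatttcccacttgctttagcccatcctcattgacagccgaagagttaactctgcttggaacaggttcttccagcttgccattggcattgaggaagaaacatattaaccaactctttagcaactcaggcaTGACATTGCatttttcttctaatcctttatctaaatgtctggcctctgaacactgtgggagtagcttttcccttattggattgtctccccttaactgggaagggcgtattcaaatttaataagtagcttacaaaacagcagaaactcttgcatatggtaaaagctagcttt
The sterol motif was found in 408 of 32851 windows (1.24%) and, among the members, in a single one of the annotated windows of Gstm6 (chr3:107943349-107943648, minus strand), on the opposite strand and in capitals. An atg stands before the match in this window. Whether the match lies in coding sequence of another transcript of Gstm6, rather than before its start, was not computed.
Gstm6: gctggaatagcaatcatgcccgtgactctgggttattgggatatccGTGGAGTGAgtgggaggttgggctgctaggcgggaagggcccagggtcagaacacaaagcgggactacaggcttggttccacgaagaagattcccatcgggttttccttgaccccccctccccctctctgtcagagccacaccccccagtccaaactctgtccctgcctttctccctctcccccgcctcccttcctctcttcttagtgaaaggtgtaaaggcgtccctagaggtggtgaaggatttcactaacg
A match is a description of the letters, not a binding site, and a window without a match shows only that these letters are not in it. These windows are printed because, of the 12 windows of the members, they hold the matches. Gsta3 and Gstm6 were also the members that were lower in the Double LKO than in GFP control livers. A link between match and level was not tested.

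Loss of HDAC3 was accompanied by higher RNA of 6 of the 9 transferases and lower RNA of none. Among all 12009 tested genes, 13.9% were called in either direction and 7.88% were called higher. Gsta1, Gsta2 and Gsta4 of the alpha class and Gstm2, Gstm3 and Gstm4 of the mu class rose, while Gsta3, Gstm1 and Gstm6 did not pass. The median log2 fold change was 0.94 over the 9 members and -0.02 over all tested genes. Calls are at an adjusted p under 0.05 in edgeR, adjusted over all tested genes.

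Gsta2 had 58.4, 80.2, 48.5 and 83.4 CPM in HDAC3 LKO livers, against a lowest of 13.4, a median of 20.6 and a highest of 27.7 CPM in GFP control livers. Every HDAC3 LKO liver was above every control liver. The log2 fold change was 1.81 (SE 0.21, adjusted p = 1.46e-05). Its close relative Gsta1 had 10.1, 14.5, 3.32 and 12.2 CPM in HDAC3 LKO livers, against 0.908, 1.24 and 2.72 CPM as lowest, median and highest of the GFP control livers. Replicate 3 was the lowest of the HDAC3 LKO livers, yet the groups did not overlap. Gsta1 rested on 16 to 109 raw counts per HDAC3 LKO library and 5 to 17 per GFP control library. Its log2 fold change was 2.87 (SE 0.79, adjusted p = 0.0204). Gsta4 had 92.8, 104, 73.8 and 108 CPM in HDAC3 LKO livers, against 54.2, 74.2 and 81.9 CPM as lowest, median and highest in GFP control livers. The groups overlapped through replicate 3, and the log2 fold change was 0.40 (SE 0.11, adjusted p = 0.0218).

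Gstm3, the inducible mu subunit, had 217, 242, 180 and 237 CPM in HDAC3 LKO livers, against a lowest of 38.1, a median of 60 and a highest of 73 CPM in GFP control livers. The 4 knockout livers lay close together and above all 6 controls, with a log2 fold change of 1.89 (SE 0.40, adjusted p = 0.0037). Gstm4 had 98, 74.3, 80.9 and 102 CPM in HDAC3 LKO livers, against 35.1, 47.5 and 55.7 CPM as lowest, median and highest in GFP control livers. These groups did not overlap either, and the log2 fold change was 0.94 (SE 0.14, adjusted p = 0.000164). Gstm2 had 51.1, 48.3, 34.4 and 49.6 CPM in HDAC3 LKO livers, against 17.6, 19.7 and 25.8 CPM in the same order for GFP control livers. Replicate 3 was again the lowest knockout liver, still above every control, and the log2 fold change was 1.17 (SE 0.22, adjusted p = 0.00119).

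Those that did not pass include Gsta3 and Gstm1, which took most of the counts of their classes. Gsta3 had 1552 to 2002 CPM in HDAC3 LKO livers and 1332 to 1598 CPM in GFP control livers, with a log2 fold change of 0.28 (SE 0.14, adjusted p = 0.2). Gstm1 had 1500 to 1901 CPM in HDAC3 LKO livers, against 840 to 2035 CPM in GFP control livers (log2 fold change 0.34, SE 0.20, adjusted p = 0.302). Gstm6 had 87.1 to 117 CPM in HDAC3 LKO livers and 82.8 to 116 CPM in GFP control livers, which are almost the same range (log2 fold change 0.12, SE 0.11, adjusted p = 0.53).

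Gsta1 no longer passed when the fit left out HDAC3 LKO replicate 2 (adjusted p = 0.0668), replicate 4 (0.0511) or HDAC3-floxed GFP replicate 1 (0.0506), and that of Gsta4 without HDAC3 LKO replicate 2 (0.0757) or 4 (0.0968). Against the 2 controls of the HDAC3-floxed line alone, Gsta1 (adjusted p = 0.0871) and Gstm3 (0.0532) did not pass and Gstm1 did, with a log2 fold change of 0.89 (adjusted p = 0.00669).

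**Figure D1:**
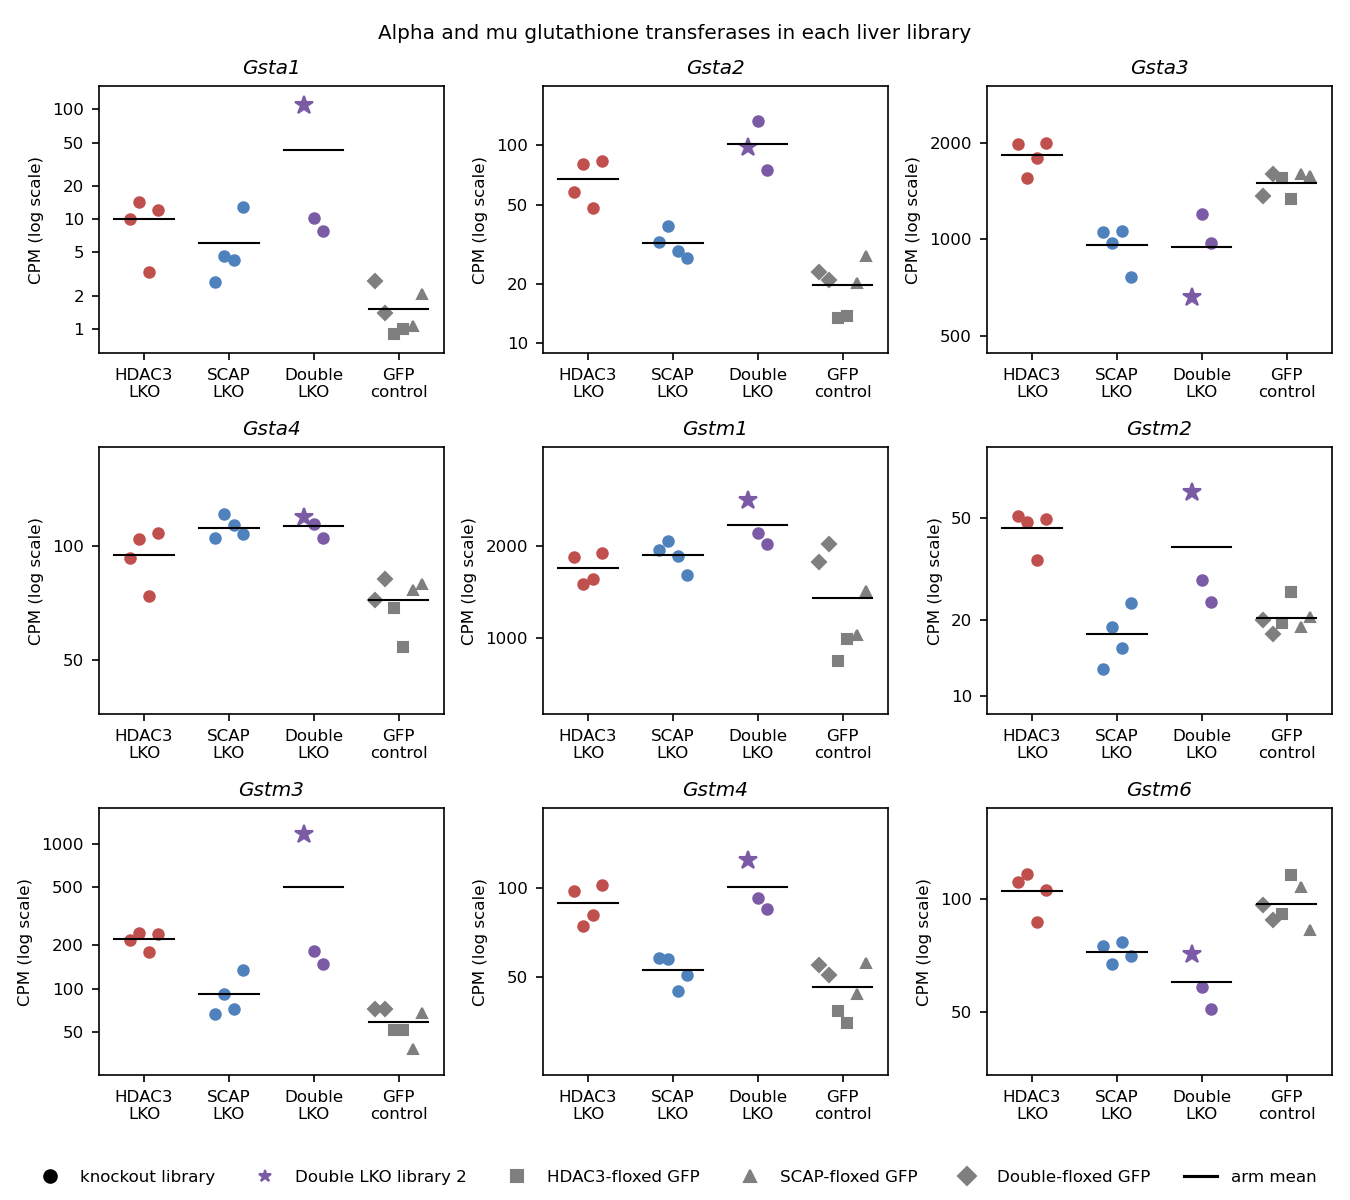
CPM of each of the 9 transferases (log axis) in every library, by group, with the group mean as a line, the Double LKO library 2 as a star and the GFP control livers marked by floxed line. Gsta1, Gsta2, Gstm3 and Gstm4 sit above every GFP control in the HDAC3 LKO and the Double LKO. Gsta3 and Gstm6 sit below every GFP control in the SCAP LKO and the Double LKO.

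Loss of SCAP was accompanied by changes in 2 of the 9 members, with Gsta4 higher and Gsta3 lower. Among all tested genes, 1.19% were called in either direction, 0.258% higher and 0.933% lower. Of the 5 mu members 0 passed in edgeR, 2 had an unadjusted p under 0.05, and DESeq2 and limma voom called 1, Gstm6. The median log2 fold change over the 9 members was 0.47, and 0.01 over all tested genes. Gsta3 had 1052, 975, 1058 and 764 CPM in SCAP LKO livers, against a lowest of 1332, a median of 1561 and a highest of 1598 CPM in GFP control livers. All 4 knockout livers lay below all controls, and the log2 fold change was -0.64 (SE 0.14, adjusted p = 0.0263). Gsta4, the 4-hydroxynonenal transferase, had 105, 121, 113 and 107 CPM in SCAP LKO livers, against 54.2, 74.2 and 81.9 CPM as lowest, median and highest in GFP control livers. Here all knockout livers lay above all controls, with a log2 fold change of 0.63 (SE 0.11, adjusted p = 0.00289).

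Other members did not pass in SCAP LKO. Gstm6 had 75.1, 66.9, 76.7 and 70.3 CPM in SCAP LKO livers, all below the 82.8 to 116 CPM of GFP control livers, at a log2 fold change of -0.43 (SE 0.11, adjusted p = 0.0797). Gsta2 had 27 to 39.2 CPM in SCAP LKO livers and 13.4 to 27.7 CPM in GFP control livers (log2 fold change 0.71, SE 0.22, adjusted p = 0.155). Gsta1 had 2.66, 4.62, 4.23 and 13 CPM in SCAP LKO livers, against 0.908 to 2.72 CPM in GFP control livers, and replicate 4 held the highest value (log2 fold change 2.23, SE 0.85, adjusted p = 0.315). In the same replicate 4 Gstm3 had 134 CPM, against 66.6 to 92.5 CPM in the other SCAP LKO livers and 38.1 to 73 CPM in GFP control livers (log2 fold change 0.63, SE 0.41, adjusted p = 0.644). Gstm1 had 1605 to 2081 CPM in SCAP LKO livers and 840 to 2035 CPM in GFP control livers (log2 fold change 0.47, adjusted p = 0.382). Gstm2 and Gstm4 had 12.8 to 23.3 and 44.9 to 58.1 CPM in SCAP LKO livers, against 17.6 to 25.8 and 35.1 to 55.7 CPM in GFP control livers, with log2 fold changes of -0.20 and 0.19.

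The call of Gsta3 was lost on leaving out SCAP LKO replicate 1, 2, 3 or 4, SCAP-floxed GFP library 1 or 2, or Double-floxed GFP library 2, with adjusted p-values of 0.0502 to 0.121 and log2 fold changes of -0.69 to -0.55. When Double LKO library 2 was left out of the fit that shares its spread, Gsta1 (adjusted p = 0.0117) and Gstm6 (0.0312) passed as well, and against the 2 controls of the SCAP-floxed line alone neither Gsta3 (0.167) nor Gsta4 (0.181) did.

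Loss of both proteins was accompanied by changes in all 9 members, 7 higher and 2 lower. Of all tested genes, 13.9% were called in either direction, 7.56% higher and 6.34% lower. Gsta1, Gsta2, Gsta4, Gstm1, Gstm2, Gstm3 and Gstm4 rose, and Gsta3 and Gstm6 fell. The median log2 fold change over the 9 members was 0.85, and -0.01 over all tested genes. Without Double LKO library 2, 7 of the 9 were called, with Gstm1 (log2 fold change 0.66, adjusted p = 0.076) and Gstm2 (0.33, adjusted p = 0.238) no longer passing, against 13% of all tested genes.

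Gsta2 had 98, 133 and 75 CPM in Double LKO livers 2, 3 and 4, against a lowest of 13.4, a median of 20.6 and a highest of 27.7 CPM in GFP control livers. All 3 lay far above the controls, and library 2 was the middle one. The log2 fold change was 2.40 (SE 0.21, adjusted p = 3.21e-07), and 2.43 without library 2. Gsta1 had 109, 10.2 and 7.78 CPM in Double LKO livers, against 0.908, 1.24 and 2.72 CPM as lowest, median and highest in GFP control livers. Library 2 alone carried the very high value, while libraries 3 and 4 lay within the range of the HDAC3 LKO livers and above every control. The log2 fold change of Gsta1 was 4.81 (SE 0.75, adjusted p = 0.000215) with the 3 libraries and 2.66 (adjusted p = 0.000831) without library 2. Gsta4 had 119, 114 and 105 CPM in Double LKO livers, against 54.2, 74.2 and 81.9 CPM as lowest, median and highest in GFP control livers. Its 3 libraries agreed closely and lay above all controls, with a log2 fold change of 0.65 (SE 0.12, adjusted p = 0.00102).

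Gstm3 had 1176, 182 and 149 CPM in Double LKO livers, against 38.1, 60 and 73 CPM as lowest, median and highest in GFP control livers. Library 2 was again far above the others, which themselves lay above every control. The log2 fold change was 3.08 (SE 0.43, adjusted p = 7.06e-05), and 1.48 (adjusted p = 8.06e-05) without library 2. Gstm4 had 124, 92.7 and 84.9 CPM in Double LKO livers, against 35.1, 47.5 and 55.7 CPM in the same order for GFP control livers. No control reached the lowest of the 3, and the log2 fold change was 1.11 (SE 0.15, adjusted p = 4.37e-05), or 0.94 without library 2. Gstm1 had 2827, 2207 and 2032 CPM in Double LKO livers, against 840, 1220 and 2035 CPM as lowest, median and highest in GFP control livers. The highest control, of the Double-floxed line, overlapped with library 4 (log2 fold change 0.81, SE 0.22, adjusted p = 0.0169). Gstm2 had 63.5, 28.6 and 23.4 CPM in Double LKO livers, against 17.6, 19.7 and 25.8 CPM in that order for GFP control livers. It was high in library 2 and overlapped with the controls through library 4 (log2 fold change 0.85, SE 0.24, adjusted p = 0.0208).

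The 2 members that fell were Gsta3 and Gstm6. Gsta3 had 663, 1199 and 974 CPM in Double LKO livers, against 1332, 1561 and 1598 CPM as lowest, median and highest in GFP control livers. Library 2 was the lowest and all 3 lay below every control, at a log2 fold change of -0.67 (SE 0.16, adjusted p = 0.00779), or -0.47 (adjusted p = 0.0341) without library 2. Gstm6 had 71.3, 58.2 and 50.7 CPM in Double LKO livers, against 82.8, 93.7 and 116 CPM in that order for GFP control livers. For this gene library 2 was the one nearest the controls, and the log2 fold change was -0.71 (SE 0.12, adjusted p = 0.000694), or -0.84 (adjusted p = 0.000188) without it. Against the 2 controls of the Double-floxed line alone, Gsta3 (adjusted p = 0.0788), Gstm1 (0.421, log2 fold change 0.31) and Gstm2 (0.112) did not pass, and the other 6 members did. The authors' deposited table lists 8 members at an FDR under 0.05 for the Double LKO, among 2.95% of its genes, and Gsta3 is the one it does not, at an FDR of 0.219 and a log2 fold change of -0.61. Shares in that table are over all 22869 genes, without the filter on low counts. They do not compare directly with shares of the 12009 tested genes. For the HDAC3 LKO the authors' deposited table lists 5 members, among 5.59% of its genes, with Gsta4 outside at an FDR of 0.0863. For the SCAP LKO the authors' deposited table lists Gsta1, Gsta2 and Gstm6 beside Gsta3 and Gsta4, with FDRs of 0.000314, 0.0199 and 0.0381, among 1.01% of its genes.

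**Figure D2:**
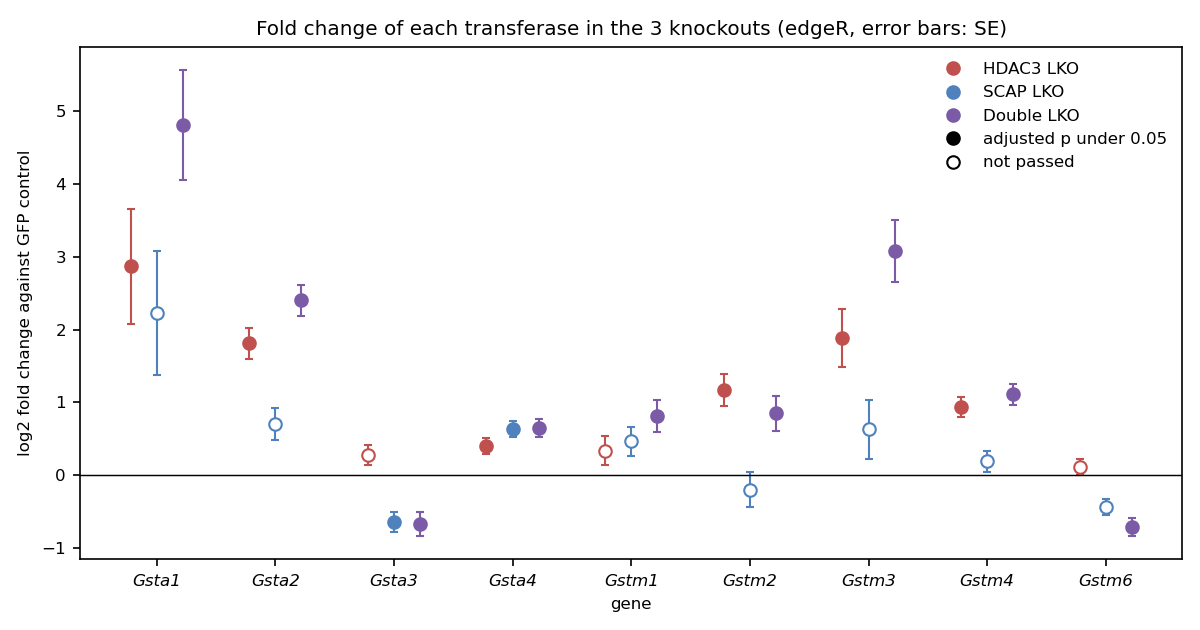
Log2 fold change of each transferase against the 6 GFP control livers in HDAC3 LKO, SCAP LKO and Double LKO, with bars for the SE and open symbols where the adjusted p was not under 0.05. All 3 comparisons share the same controls, and all 9 members are filled for the Double LKO, 2 for the SCAP LKO and 6 for the HDAC3 LKO.

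**Figure D3:**
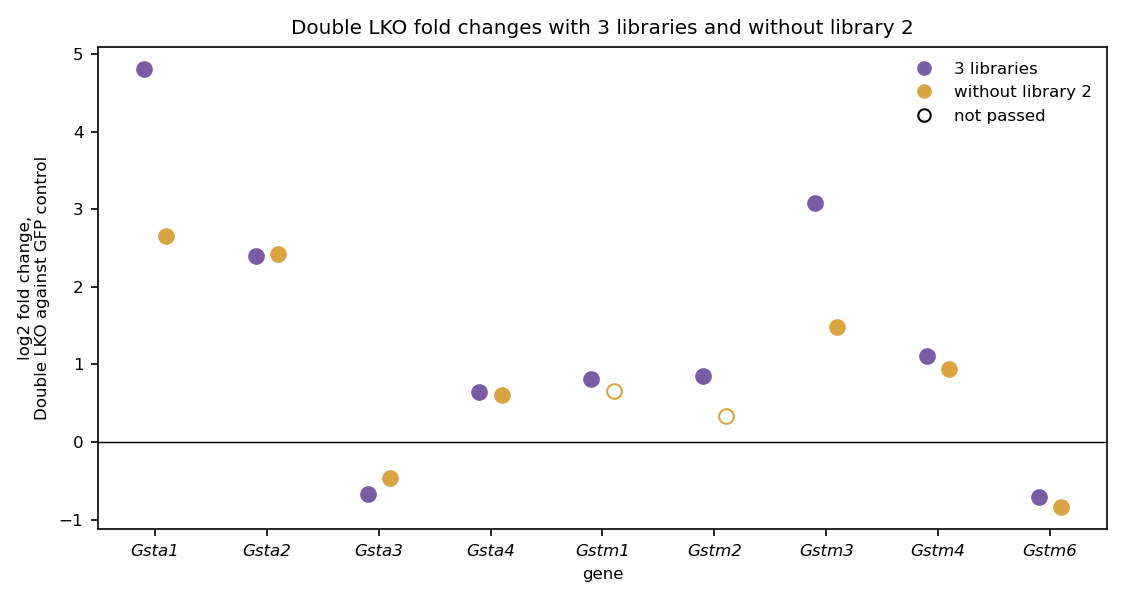
Log2 fold change of each transferase in the Double LKO against GFP control livers, with 3 libraries and without library 2, open where the adjusted p was not under 0.05. Gsta1 moves to 2.66 and Gstm3 to 1.48 without library 2, while Gsta2 stays at 2.43.

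Removing SCAP in addition to HDAC3 was examined by setting the Double LKO against the HDAC3 LKO, where both groups received Cre. Of the 9 members 2 were called, both lower, beside 1.31% of all tested genes called in either direction and 1.2% called lower. Gsta3 had 663 to 1199 CPM in Double LKO livers, against 1552 to 2002 CPM in HDAC3 LKO livers, with no overlap and a log2 fold change of -0.95 (SE 0.17, adjusted p = 0.00343). Gstm6 had 50.7 to 71.3 CPM in Double LKO livers, against 87.1 to 117 CPM in HDAC3 LKO livers, also without overlap (log2 fold change -0.82, SE 0.13, adjusted p = 0.00103). Without library 2 the values were -0.75 (adjusted p = 0.0103) for Gsta3 and -0.96 (adjusted p = 0.000254) for Gstm6, and Gstm2 passed too, lower in the Double LKO at -0.83 (adjusted p = 0.0271). The other 7 members did not pass with all libraries. Gsta1 had a log2 fold change of 1.94 (SE 0.68, adjusted p = 0.262), which turned to -0.20 without library 2. Gstm3 had one of 1.19 (SE 0.47, adjusted p = 0.339), which turned to -0.41. Gsta2 was at 0.59 (adjusted p = 0.327), Gstm1 at 0.47 (0.502), Gsta4 at 0.25 (0.518), Gstm4 at 0.17 (0.769) and Gstm2 at -0.32 (0.708).

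Removing HDAC3 in addition to SCAP was examined by setting the Double LKO against the SCAP LKO. Here 5 of the 9 members were called, all higher, beside 7.99% of all tested genes called in either direction and 4.98% called higher. Gsta2 had 75 to 133 CPM in Double LKO livers, against 27 to 39.2 CPM in SCAP LKO livers, and Gstm4 had 84.9 to 124 CPM in Double LKO livers, against 44.9 to 58.1 CPM in SCAP LKO livers. Neither pair of groups overlapped, and the log2 fold changes were 1.69 (SE 0.24, adjusted p = 0.000205) for Gsta2 and 0.92 (SE 0.17, adjusted p = 0.00146) for Gstm4. Gstm3 was higher at 2.44 (SE 0.49, adjusted p = 0.00344), or 0.84 (adjusted p = 0.0277) without library 2. Gsta1 at 2.58 (SE 0.72, adjusted p = 0.0339) and Gstm2 at 1.05 (SE 0.27, adjusted p = 0.0195) passed with all libraries, but without library 2 stood at 0.43 (adjusted p = 0.634) and 0.53 (adjusted p = 0.0921). The call of Gsta1 was also lost without SCAP LKO replicate 1, 2 or 3 (adjusted p = 0.081 to 0.0975), its value was 3.34 without replicate 4, and that of Gstm2 was lost without SCAP LKO replicate 1 or 3. Gsta3, which was low in both groups, was at -0.02 (SE 0.17, adjusted p = 0.959), and Gsta4, which was high in both, at 0.02 (SE 0.13, adjusted p = 0.968). Gstm1 at 0.33 (adjusted p = 0.465) and Gstm6 at -0.28 (adjusted p = 0.224) did not pass.

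Whether the double knockout differed from the sum of the single knockouts was tested as an interaction on the log2 scale. Of the 12009 genes, 0 passed in edgeR (0%), 601 had an unadjusted p under 0.05, DESeq2 called 9 and limma voom with quality weights called 6. The 9 members had adjusted p-values of at least 0.969. Gstm6 with a log2 difference of -0.40 (SE 0.17) and Gsta4 with -0.38 (SE 0.17) had unadjusted p-values of 0.0321 and 0.0391. The other 7 lay between -0.31 (SE 0.22) for Gsta3 and 0.55 (SE 0.63) for Gstm3. Gsta1 had the widest standard error, with a log2 difference of -0.29 (SE 1.08).

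The difference between the effect of Cre in the HDAC3-floxed line and in the SCAP-floxed line was tested in a fit of all 6 groups of line and virus, a contrast chosen after seeing the data. Cre deleted HDAC3 in the first line and SCAP in the second, so the contrast sets loss of HDAC3 against loss of SCAP. Among 12214 genes tested, 2.55% were called, and among the 9 members 2 were. The effect of Cre on Gsta2 was 2.32 in the HDAC3-floxed line and 0.39 in the SCAP-floxed line, on the log2 scale, a difference of 1.92 (SE 0.35, adjusted p = 0.00436). For Gstm4 the effects were 1.26 in the HDAC3-floxed line and 0.08 in the SCAP-floxed line, a difference of 1.19 (SE 0.24, adjusted p = 0.00989). For Gsta3 they were 0.34 and -0.72 in the same order of lines, a difference of 1.06 (SE 0.28, adjusted p = 0.0557). Gsta4 had effects of 0.62 in the HDAC3-floxed line and 0.51 in the SCAP-floxed line, a difference of 0.11 (SE 0.19, adjusted p = 0.857).

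**Figure D4:**
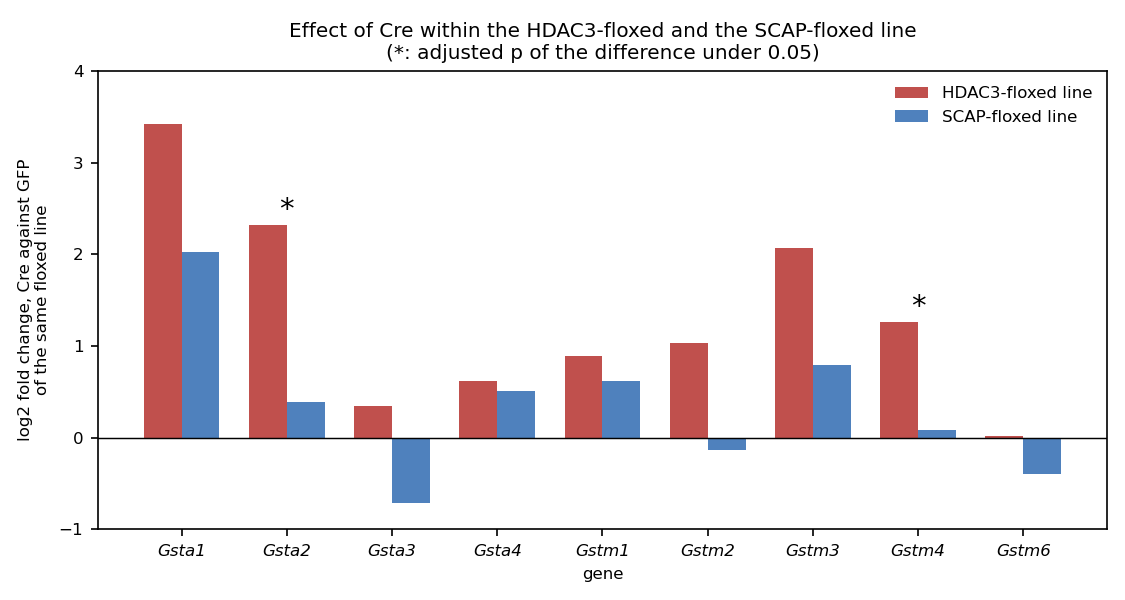
Log2 fold change of Cre against GFP within the HDAC3-floxed line (4 knockout and 2 control livers) and within the SCAP-floxed line (4 and 2), as bars for each transferase, with an asterisk where the adjusted p of the difference was under 0.05. Gsta2, at 2.32 and 0.39, and Gstm4, at 1.26 and 0.08, carry the asterisk.

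Among the GFP control livers, Gstm1 had 840 and 990 CPM in HDAC3-floxed, 1020 and 1421 CPM in SCAP-floxed and 1775 and 2035 CPM in Double-floxed GFP livers. Gstm1 thus did not overlap between the control lines, and the spread of the 6 controls for it was 480 CPM (SD) around a mean of 1347 CPM. Gsta2 had 13.4 and 13.7 CPM in HDAC3-floxed GFP livers, against 20.2 to 27.7 CPM in the GFP livers of the other lines. Gsta1, Gsta4 and Gstm4 were likewise lower in both HDAC3-floxed GFP livers than in any other control, while Gsta3, Gstm2, Gstm3 and Gstm6 overlapped. Of all tested genes, 7.84% had both HDAC3-floxed controls below the other 4 and 7.25% had both above. With 2 livers a line, these differences between lines were described and not tested.

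Summed over a class, the alpha members came to 2002 ± 209 CPM in HDAC3 LKO (SD, n = 4), 1112 ± 137 CPM in SCAP LKO (n = 4), 1202 ± 236 CPM in Double LKO (n = 3) and 1595 ± 131 CPM in GFP control livers (n = 6). Double LKO livers without library 2 had 1162 and 1456 CPM of alpha RNA. The alpha sum follows Gsta3. Its mean share of the alpha counts was 91.3% in HDAC3 LKO, 86.4% in SCAP LKO, 77.7% in Double LKO and 94.2% in GFP control livers. In single Double LKO livers this share was 67% to 83.8%, lowest in library 2. Gsta2 held 3.41%, 2.89%, 8.5% and 1.24% of the alpha counts in the same 4 groups. The mu members came to 2158 ± 233 CPM in HDAC3 LKO, 2105 ± 181 CPM in SCAP LKO, 3057 ± 1050 CPM in Double LKO and 1570 ± 491 CPM in GFP control livers. Without library 2, the Double LKO livers had 2339 and 2568 CPM of mu RNA. In the mu class Gstm1 held a mean of 78.7% of counts in HDAC3 LKO, 88.7% in SCAP LKO, 79.7% in Double LKO and 84.8% in GFP control livers. In single Double LKO livers Gstm1 held 66.3% to 86.8%, again lowest in library 2. These shares are of counts, which also depend on transcript length, and do not rank the genes by level.

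**Figure D5:**
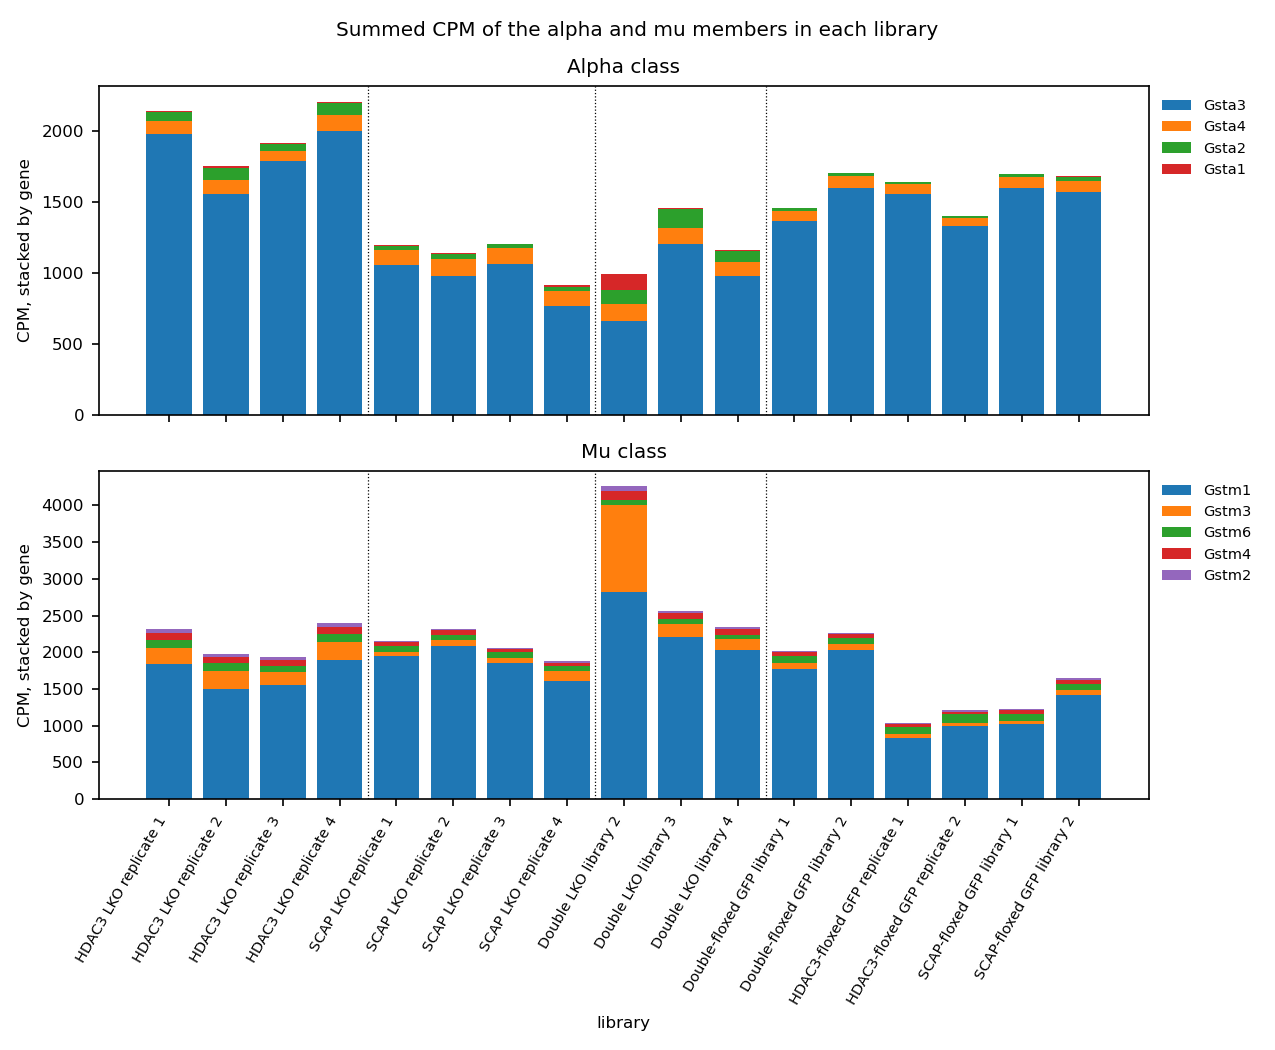
CPM of the alpha members (top) and mu members (bottom), stacked by gene, in each of the 17 libraries, from HDAC3 LKO on the left to GFP control on the right. Gsta3 makes up most of each alpha bar and Gstm1 most of each mu bar, and Double LKO library 2 holds the largest block of Gstm3 counts, at 1176 CPM.

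Reads of Gsta1 and its near copies may have been shared among genes, and the sources used here do not give how reads mapping to several places were counted. Gm3776 had 30.4, 2.7 and 1.67 CPM in Double LKO livers 2, 3 and 4, against 0.176 to 0.568 CPM in GFP control livers, with library 2 highest as for Gsta1. Its log2 fold change in the Double LKO was 5.07 (SE 0.96, adjusted p = 0.00127). Summing Gsta1 and Gm3776 gave 53.8 ± 73.9 CPM in Double LKO livers and 1.84 ± 0.885 CPM in GFP control livers, a ratio of 29.2, or 6.07 without library 2. This sum does not depend on how reads were split between the pair. It would change if reads mapping to several places were dropped or counted at each place. In HDAC3 LKO livers the same sum was 12.2 ± 6.45 CPM, a ratio of 6.64 to GFP control livers. Summing Gsta1, Gsta2, Gm3776 and Gm10639 gave 80.1 ± 22.9 CPM in HDAC3 LKO, 39.7 ± 5.44 CPM in SCAP LKO, 156 ± 77.3 CPM in Double LKO and 21.7 ± 6.23 CPM in GFP control livers. Gsta1 and Gsta2 without the copies summed to 77.7 ± 21.3 CPM in HDAC3 LKO and 21.3 ± 6.04 CPM in GFP control livers. The copies added few counts to this sum, so it could not show whether shared reads affected the values. The mu genes of chromosome 3 are also close relatives, so that values of single mu members are uncertain to the extent that reads were split among them.

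Across the 17 libraries, the correlation of log2 CPM between members is given as a description, since the libraries share groups, depth and library 2. Gsta2 and Gstm4 had a Pearson r of 0.93, and 0.92 over 16 libraries without library 2. Gsta1 and Gstm3 had 0.94, and 0.89 without it. Gsta3 and Gstm6 had 0.69, and 0.71 without it, while Gsta2 and Gsta3 had -0.14 and 0.06. Outside the members, the genes most like the mean alpha profile were Arfgef2, Abcc4, Psap, Psma7 and Htatip2, with r of 0.90 to 0.92. Those most like the mean mu profile were Rdh9, Tubb2a, Nt5e, Zwint and Cidec, with r of 0.92 to 0.95. Gsta2 was most like Dopey2 (0.96), Cyp3a11 (0.93), Slc16a7, Lamb3 and Gpd1. Gstm3 was most like Krt8 (0.96), Tubb2a, Otud7b, Krt18 and Sqstm1 (0.94), with r of 0.89 to 0.92 for these without library 2. Gsta3 was most like Apoa2 (0.95), Abcd3, Idh1, Tm7sf2 and Haao, and Gstm6 most like Fads1 (0.91), Acsl5, Fads2, Avpi1 and Scpep1. Gsta1 was most like Tm4sf4 (0.93), Gsta4 most like Hsd17b13 (0.87), Gstm2 most like Rdh9 (0.95) and Gstm4 most like Aldh3a2 (0.95).

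Transferases of other classes changed in both directions with loss of HDAC3. Of 12 tested genes of other classes, 6 rose and 2 fell in HDAC3 LKO livers, 0 rose and 1 fell in SCAP LKO livers, or 2 fell when Double LKO library 2 was left out of the fit. In Double LKO livers 3 rose and 1 fell, or 6 rose and 0 fell without library 2. Theta-class Gstt1 averaged 576 ± 39.5 CPM in HDAC3 LKO and 203 ± 17.1 CPM in GFP control livers, at a log2 fold change of 1.51 (SE 0.14, adjusted p = 2.1e-06). It was also higher in the Double LKO, at 492 ± 158 CPM (log2 fold change 1.28, adjusted p = 1.04e-05). Gstt3 rose in HDAC3 LKO (1.59, adjusted p = 0.000206) and fell in SCAP LKO (-1.42, adjusted p = 0.00965). Pi-class Gstp1 fell in HDAC3 LKO to 456 ± 46.6 CPM, against 960 ± 189 CPM in GFP control livers (-1.07, adjusted p = 8.85e-05), and in Double LKO (-0.52, adjusted p = 0.0371, or 0.0534 without library 2). Gstz1, which takes part in tyrosine breakdown, averaged 592 CPM in HDAC3 LKO and 588 CPM in GFP control livers and did not pass. The list also held Gstm7 and Gstm5, mu-class genes that are no members, and they fell in the Double LKO at -0.59 each (adjusted p = 0.0105 and 0.0144), or at -0.44 and -0.52 without library 2 (adjusted p = 0.048 and 0.0446). Neither passed in HDAC3 LKO, where Gstm7 was at 0.09 and Gstm5 at -0.31, or in SCAP LKO, at -0.54 and -0.22.

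Genes of glutathione synthesis and turnover were higher wherever they passed against GFP control. Of 15 tested, 6 rose in HDAC3 LKO, 7 rose in Double LKO and none fell in either. In SCAP LKO 0 of 15 passed in edgeR, DESeq2 or limma voom, and 3 had an unadjusted p under 0.05. Cbs and Cth, the enzymes that turn homocysteine into cysteine, rose in HDAC3 LKO at 0.79 (adjusted p = 3.58e-05) and 0.88 (adjusted p = 0.00244), and Cbs rose in Double LKO at 0.77 (adjusted p = 7.39e-05). Ggt6, a gamma-glutamyltransferase, rose at 1.34 in HDAC3 LKO (adjusted p = 6.67e-06) and 1.15 in Double LKO (adjusted p = 3.42e-05), and Oplah, which recycles 5-oxoproline, at 0.59 (adjusted p = 0.000188) and 0.57 (adjusted p = 0.000463) in the same order. Gclc, the catalytic subunit of the limiting enzyme of glutathione synthesis, averaged 473 ± 42.4 CPM in HDAC3 LKO, 821 ± 407 CPM in Double LKO and 517 ± 241 CPM in GFP control livers and passed in neither comparison. In HDAC3 LKO, Gclm (-0.13, adjusted p = 0.455), Gss (0.25, 0.308), Chac1 (-1.08, 0.0936) and Chac2 (-0.38, 0.0672) did not pass either. Of 4 tested glutathione peroxidases, Gpx4 (0.55, adjusted p = 0.00593) and Gpx1 (0.45, adjusted p = 0.0321) rose in HDAC3 LKO, and Gpx1 (0.57, adjusted p = 0.013) in Double LKO.

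Of 7 tested exporters of conjugates, Abcc4 and Abcc3, which pump into the blood, rose in HDAC3 LKO at 1.79 (adjusted p = 0.00015) and 0.49 (adjusted p = 0.0204). Abcc2, the canalicular exporter, fell there at -0.44 (adjusted p = 0.00519). In Double LKO, Abcc4 and Abcc3 rose and Abcc2 and Abcc6 fell, though Abcc6 did not pass without library 2 (-0.29, adjusted p = 0.101). In SCAP LKO 0 of 7 passed in edgeR, DESeq2 or limma voom, with 0 at an unadjusted p under 0.05. Of 15 factors known to regulate the transferases, 4 rose in HDAC3 LKO, namely Nr1i2 (which encodes PXR), Mafk, Cebpb and Cebpa, at 0.34 to 0.63. In Double LKO 3 rose, Keap1, Mafk and Cebpa, and without library 2 Mafk did not pass (0.25, adjusted p = 0.243). The RNA of Nfe2l2, which encodes NRF2, had log2 fold changes of 0.29 (adjusted p = 0.0651) in HDAC3 LKO and 0.21 (adjusted p = 0.223) in Double LKO. Among 14 tested inducible targets of these factors, 4 rose in HDAC3 LKO and 7 in Double LKO, or 6 without library 2, and none fell. Cyp3a11, a target of PXR, rose at 0.95 (adjusted p = 0.000672) in HDAC3 LKO and 1.29 (adjusted p = 5.01e-05) in Double LKO, and Nqo1, a target of NRF2, at 0.73 (adjusted p = 0.0185) and 1.49 (adjusted p = 5.01e-05) in the same order. Ugt1a6a (0.64, adjusted p = 0.000468) and Cyp1a2 (0.46, adjusted p = 0.0323) also rose in HDAC3 LKO. Srxn1, also a target of NRF2, averaged 274 ± 329 CPM in Double LKO and 58.3 ± 22.6 CPM in GFP control livers (2.23, adjusted p = 0.00329), but did not pass without library 2 (0.55, adjusted p = 0.251). In HDAC3 LKO, Srxn1 (0.41, adjusted p = 0.609), Txnrd1 (0.08, 0.742), Hmox1 (0.46, 0.208) and Cyp2b10 (0.65, 0.342) did not pass. Nr1i3, which encodes CAR, did not pass there either (-0.39, adjusted p = 0.105). In SCAP LKO 0 of the 15 factors and 0 of the 14 targets passed in edgeR, DESeq2 or limma voom, where 2 factors and 4 targets had an unadjusted p under 0.05.

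Markers of other cells were measured beside these results. Of 25 tested markers of cholangiocytes, macrophages, stellate, endothelial and lymphoid cells, 0 passed in edgeR in HDAC3 LKO, SCAP LKO or Double LKO against GFP control. In the same order, 3, 4 and 5 had an unadjusted p under 0.05, DESeq2 called 0, 0 and 1 and limma voom 0, 0 and 2. Only 4 of 7 listed cholangiocyte markers were tested. For lymphocytes it was 1 of 5, Ptprc, so these values say little about lymphoid cells. In Double LKO against HDAC3 LKO, where Gsta3 and Gstm6 were lower, 1 of the 25 passed, the endothelial marker Lyve1, with 10.3 ± 1.79 CPM in Double LKO and 22.3 ± 9.07 CPM in HDAC3 LKO livers (-1.13, adjusted p = 0.0134, or -1.10 and 0.0377 without library 2). Summed macrophage markers had 289 to 374 CPM in HDAC3 LKO, 273 to 426 in SCAP LKO, 282 to 331 in Double LKO and 209 to 437 in GFP control livers, and no listed marker of these cell types was at 0 throughout any of the 4 groups. Cholangiocyte markers summed to 30.5 to 53.6 CPM in HDAC3 LKO, 48.1 to 162 in SCAP LKO, 37.9 to 87.2 in Double LKO and 34.7 to 74.5 in GFP control livers. Of 12 pericentral hepatocyte markers, Oat (1.71, adjusted p = 3.02e-06) and Cyp1a2 (0.46, adjusted p = 0.0323) rose in HDAC3 LKO, and these and Cyp2e1 (0.55, adjusted p = 0.0258) rose in Double LKO. Their summed level was 9933 to 15031 CPM in HDAC3 LKO, 9569 to 10720 in SCAP LKO, 11840 to 17051 in Double LKO and 9251 to 10579 CPM in GFP control livers. Of 11 periportal markers, Hsd17b13 rose in Double LKO (0.45, adjusted p = 0.0172). Without library 2 it did not pass (0.34, adjusted p = 0.0884), and Ctsc (0.75, adjusted p = 0.00524), Sfxn1 (0.40, adjusted p = 0.0331) and Hal (0.75, adjusted p = 0.042) did, all higher. Of 3 erythroid markers, Alas2 fell in HDAC3 LKO (-1.35, adjusted p = 3.58e-05) and Double LKO (-1.81, adjusted p = 3.66e-06). The part of any of these in the values of the transferases was not tested.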

How the data were processed

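Raw counts per gene were deposited by the authors for 17 liver RNA libraries in 1 table, and the submitters' processing notes name Bowtie, HOMER, edgeR and mm9. The members and gene lists were chosen with earlier results of these data known. From 28644 transcripts, the 22869 that the authors marked as best for their gene were used, holding 80.4% to 82% of each library's counts. Per the file headers, the same table also holds the authors' log2 fold changes with p-values and FDR values, used where named as the authors' deposited table, and 17 further columns of values per sample that were not used.

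Counts were tested with edgeR 4.0.16 (R 4.3.3), with filterByExpr, TMM factors and the quasi-likelihood test over the 4 groups of HDAC3 LKO, SCAP LKO, Double LKO and GFP control livers, and p-values were adjusted by Benjamini-Hochberg over 12009 genes. All p-values are from this fit unless another tool is named. Alternatives were DESeq2 1.42.0, limma 3.58.1 voom with quality weights, DESeq2 size factors, no filter, the transcript with the highest count, controls of the same floxed line alone, a replicate block and leaving out each library. Named genes are the 9 members, up to 4 genes per list and comparison that passed with the lowest p, the gene of a list with the highest level that did not pass, and the 5 genes whose log2 CPM correlated best with each member or class. Nfe2l2, Srxn1, Gstm5, Nr1i3, Txnrd1, Hmox1, Cyp2b10, Gclm, Gss, Chac1 and Chac2, and the genes whose call changed without Double LKO library 2, were chosen after their values were seen. Within groups, 18 pairs of libraries differed by 2.86 to 40.9 in chi-square per degree of freedom, beyond sampling noise, and none was merged. Deviations from the group mean correlated at -0.06 to 0.11 over 8 pairs of replicates with the same number in different groups. With 2 HDAC3-floxed GFP replicates, whose deviations mirror each other, this check cannot exclude pairing. Windows were aligned with Biopython 1.88. Peak lists from 10 ChIP samples were not used here.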

Additional observations from a re-analysis of the deposited data

Results flagged for a closer look

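Loss of HDAC3 and loss of SCAP, each as Cre against GFP within its own floxed line, differed for 2 members on the log2 scale. For Gsta2 the HDAC3-floxed line exceeded the SCAP-floxed line by 1.92 (SE 0.35, adjusted p = 0.00436 in edgeR), and for Gstm4 by 1.19 (SE 0.24, adjusted p = 0.00989). Both HDAC3-floxed GFP livers had the lowest values of these genes among the 6 controls, at 13.4 and 13.7 CPM for Gsta2 and 38.6 and 35.1 CPM for Gstm4, and the part of the control level in the difference was not tested.

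Single libraries stood far from the rest of their group for 1 member, Gstm2. HDAC3 LKO replicate 3 had 34.4 CPM, against 48.3 to 51.1 CPM in the other HDAC3 LKO livers. HDAC3-floxed GFP replicate 2 had 25.8 CPM, against 17.6 to 20.5 CPM in the other GFP control livers. These are 2 of 27 groups examined by Dixon's test at the 95% level, which chance alone passes in about 1 of 20. The Double LKO, with 3 libraries, was not examined in this way.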

How the results depend on the processing

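Of 1025 log2 fold changes of single members recomputed over 25 settings, 972 kept their direction and side of the threshold, 30 no longer passed, 10 newly passed and 13 reversed. Members called in SCAP LKO numbered 0 with controls of the same line alone and 1 to 4 on leaving out single libraries. Members called in Double LKO against SCAP LKO numbered 3 with DESeq2 and 3 to 5 on leaving out single libraries. Counts over all genes were 1666 in HDAC3 LKO (839 against controls of the same line, 1086 to 2084 without single libraries, lowest without HDAC3 LKO replicate 4), 143 in SCAP LKO (225 with DESeq2, 234 with limma voom, 90 against controls of the same line, 102 to 218 without single libraries, highest without Double LKO library 2) and 1669 in Double LKO (2874 with limma voom, 714 against controls of the same line). They were 157 in Double LKO against HDAC3 LKO (237 with DESeq2, 509 with limma voom), 959 in Double LKO against SCAP LKO (1967 with limma voom) and 0 for the interaction (9 with DESeq2, 6 with limma voom, 2 without the filter, 0 to 2 without single libraries). The libraries tied to a numbered sample, of the HDAC3 LKO, SCAP LKO and HDAC3-floxed GFP livers, were also fitted alone. For HDAC3 LKO they gave 1079 genes without and 822 with a replicate block, and 7 members either way. Whether the numbers pair the samples was not settled. In Double LKO against HDAC3 LKO, values with limma voom were -0.11 for Gsta1, -0.22 for Gstm3 and -0.02 for Gstm4, and without single libraries -0.20 to 2.49 for Gsta1 and -0.41 to 1.63 for Gstm3, both lowest without Double LKO library 2. In Double LKO against SCAP LKO, Gsta3 had 0.03 with limma voom and -0.22 to 0.18 without single libraries, and Gsta4 -0.04 and -0.02 to 0.07. DESeq2 gave no adjusted p for Gsta1 and Gstm3 in any pairwise comparison, so its 3 members in Double LKO against SCAP LKO are among 7 with a value, and it gave none for 6 members in the interaction. Causes were not tested. Peaks near the members and levels per transcript length were not run. Gsta1 had 5 to 17 counts per control library.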
